A study of Mus musculus with 4 samples.

Results

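The 10 genes described here are F13a1, Csf1r, Ly86, Cd68, Lyz2, Vcan, Adgre1, Fcgr3, Hp and Lgals3. They are known genes of monocytes and macrophages, though other cells also make some of them, such as F13a1 and Fcgr3. All were followed in hematopoietic stem and progenitor cells that lacked or kept the gamma-secretase subunit nicastrin. They were chosen by gene symbol in the annotation of the Affymetrix array, which pairs them with 19 of its 45101 probe sets, and all 10 were among the 18193 genes measured. No filter on low values was applied, so no gene was lost. The cells were lineage-negative, cKit-positive, Sca1-positive (LSK) bone marrow cells, a sorted fraction that holds stem cells and multipotent progenitors and from which cells with mature lineage antigens are gated out. Ncstn KO mice carried Ncstn flox/flox with the Mx1-cre+ transgene, and their WT littermates carried Ncstn flox/flox without cre. Mx1-cre is a recombinase gene whose promoter answers to interferon and acts in many cell types. All mice, WT included, were given polyIC, an inducer of interferon, in 3 injections of 20 micrograms per gram of body weight starting at 14 days of age, and they were killed at 6 weeks of age, 4 weeks after injection. Each group held 2 arrays. Ncstn KO replicate 1 came from a female and Ncstn KO replicate 2 from a male, while WT replicate 1 came from a male and WT replicate 2 from a female. Because cre was carried only by the Ncstn KO mice, loss of Ncstn and presence of cre cannot be told apart.

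Monocytes and macrophages descend from stem cells by way of granulocyte-macrophage progenitors. The transcription factors PU.1, encoded by Spi1, and Irf8 direct that path, and macrophage colony-stimulating factor, acting through its receptor Csf1r, sustains it. Multipotent progenitors are known to transcribe some myeloid genes at low levels before they commit. These genes can thus be read in LSK cells whether or not mature monocytes are present. In a bulk sample, however, more cells of a type and more RNA per cell cannot be told apart.

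The arrays had median intensities between 71.6 and 79.2. The 18 probe sets for spiked bacterial and phage hybridization controls averaged 0.20 higher on the log2 scale on the Ncstn KO arrays, and the excess of 3′ over 5′ signal of the actin control was 1.02 and 0.94 in Ncstn KO against 0.89 and 0.79 in WT. That of the Gapdh control overlapped, at 0.69 and 0.77 in Ncstn KO and 0.71 and 0.65 in WT. The part of these control values in the results below was not tested, except that the control scaling is given beside the main result. The targeted gene Ncstn had intensities of 191 and 240 on Ncstn KO replicates 1 and 2 against 530 and 505 on WT replicates 1 and 2 for its brighter probe set, a log2 change of -1.27 (SE 0.22) that did not pass limma (adjusted p = 0.257). A dimmer Ncstn probe set overlapped, at 58.3 and 136 in Ncstn KO and 113 and 111 in WT. The sort marker gene Kit overlapped between the groups, with intensities of 3318 and 3389 in Ncstn KO and 3939 and 3036 in WT. Precision is limited by the number of arrays, and with 2 a group an exact two-sided permutation test of 1 gene cannot give a p under 0.333.

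The first question was whether the monocyte and macrophage genes as a set differed between Ncstn KO and WT cells. All 10 genes had a higher mean log2 intensity in Ncstn KO, and in 9 of them, all but Lyz2, both Ncstn KO arrays lay above both WT arrays. Their median log2 change, Ncstn KO minus WT, was 1.12, beside 0.02 over all 18193 genes. Vcan had the widest difference, followed by F13a1, Lgals3, Fcgr3, Hp and Ly86, and these 6 were at least 2-fold higher with separate arrays. No gene passed the test across the whole array: at an adjusted p under 0.05 limma called 0 of 18193 genes (0%), while 902 genes had an unadjusted p under 0.05 in the higher direction (4.96%) and 335 in the lower (1.84%). Of the 10 genes, 8 were among those 902. A positive mean change was found for 55.8% of all genes, Ncstn KO arrays both above WT for 21.3%, and at least 2-fold with separate arrays for 1.19%. At least 2-fold apart with separate arrays were 217 genes higher and 94 lower in Ncstn KO, against 111 higher and 168 lower under the scaling to hybridization controls described below. Because the 10 genes were chosen with earlier results of these data known, these counts are a description and the set was given no test. With the arrays scaled so that the hybridization controls were level, the median change of all genes moved to -0.17 and that of the 10 genes to 0.92.

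**Figure D1:**
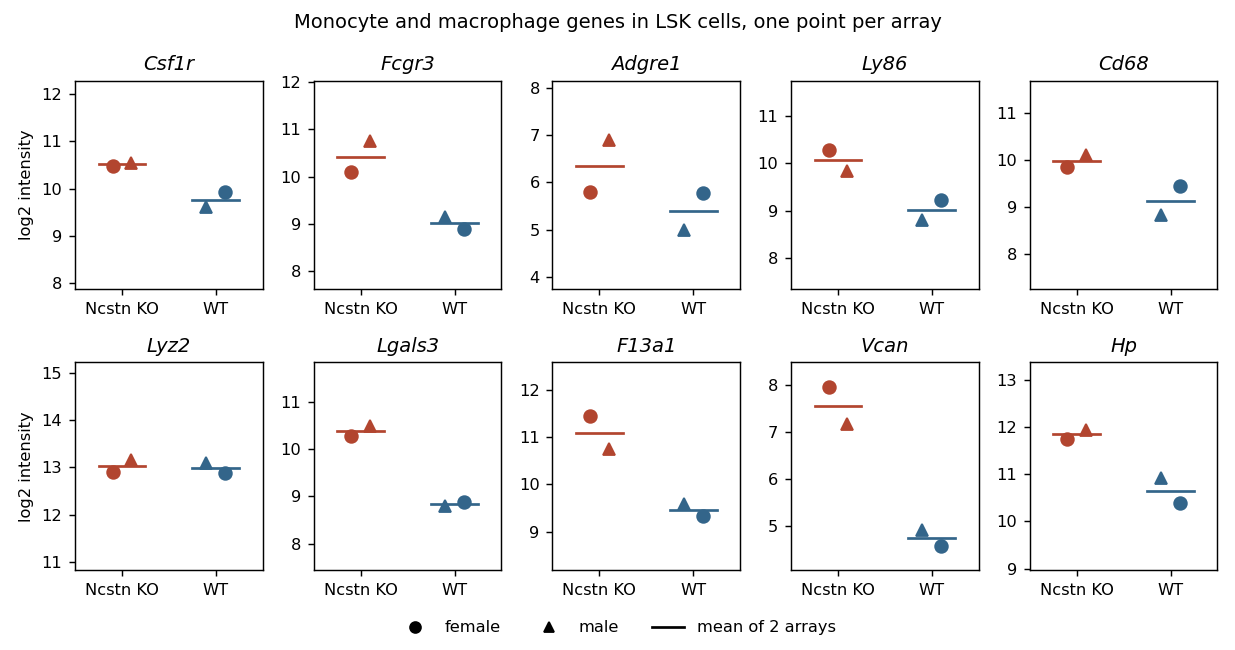
Log2 intensity of the main probe set of each gene on the 4 arrays, with Ncstn KO left of WT, circles for females, triangles for males and a bar at the mean of each group (n = 2). Every panel spans the same number of log2 units. Both Ncstn KO arrays lie above both WT arrays in 9 of 10 panels, and the arrays of Lyz2 overlap.

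**Figure D2:**
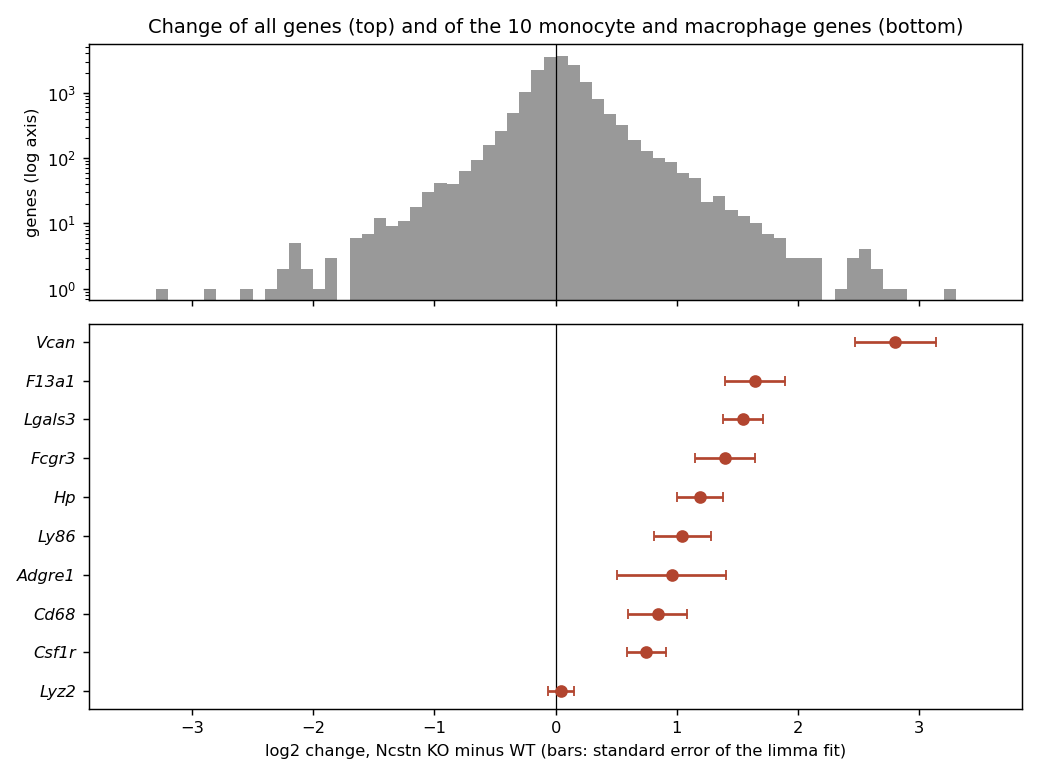
Top, histogram of the log2 change, Ncstn KO minus WT, of 18193 genes, with the number of genes on a log axis. Bottom, the change of the 10 genes on the same horizontal axis with the standard error of the limma fit (n = 2 per group). The genes run from 0.05 for Lyz2 to 2.80 for Vcan, and none passed the test.

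The receptor genes Csf1r, Fcgr3 and Adgre1 and the receptor partner Ly86 all lay higher in Ncstn KO, with Fcgr3 the furthest apart and Adgre1 the least certain. Csf1r, the receptor for macrophage colony-stimulating factor, had intensities of 1431 and 1496 on Ncstn KO replicates 1 and 2 against 781 and 971 on WT replicates 1 and 2. The Ncstn KO pair was tight and stood clear of both WT arrays. Its log2 change was 0.75 (SE 0.16, limma adjusted p = 0.377), or 1.68-fold. The other Csf1r probe sets, 1419873_s_at and 1423593_a_at, had changes of 0.72 and 0.68 with separate arrays, so the 3 probe sets of this gene gave nearly the same difference.

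Fcgr3 encodes a low-affinity receptor for the constant part of immunoglobulin G, through which macrophages and other myeloid cells take up antibody-coated particles. Its intensity was 1094 and 1720 in Ncstn KO and 570 and 476 in WT. The male Ncstn KO array was the highest, and the groups did not overlap. The log2 change was 1.40 (SE 0.25, limma adjusted p = 0.287), or 2.63-fold.

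Ly86 encodes MD-1, a secreted protein that pairs with the Toll-like receptor relative encoded by Cd180. Ly86 intensities were 1247 and 915 in Ncstn KO and 446 and 602 in WT, a log2 change of 1.04 (SE 0.24, limma adjusted p = 0.391). Here the female Ncstn KO array was the highest, and the WT arrays stayed below both Ncstn KO arrays. Its partner Cd180, chosen after its values were seen, did not follow, with 293 and 269 in Ncstn KO lying inside the WT values of 225 and 412.

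Adgre1 encodes the F4/80 antigen, the classical surface marker of mouse macrophages, and it was dim on every array. Its intensity was 55.3 and 119 in Ncstn KO against 31.9 and 54.7 in WT. The groups were separate only by the narrowest margin, since the female Ncstn KO and the female WT array were nearly equal. The log2 change of 0.96 (SE 0.45, limma adjusted p = 0.797) therefore rested on the males, and it ran from 0.40 without Ncstn KO replicate 2 to 1.51 without Ncstn KO replicate 1, with 0.57 without WT replicate 1.

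The lysosomal genes parted. Cd68 encodes macrosialin, a heavily glycosylated protein of the lysosomal membrane of macrophages. It had intensities of 925 and 1102 in Ncstn KO and 456 and 694 in WT, which did not overlap, for a log2 change of 0.84 (SE 0.24, limma adjusted p = 0.548, and 0.54 without WT replicate 1). Lyz2 encodes lysozyme, the enzyme with which phagocytes break down bacterial cell walls, and it was the exception of the set. It was bright everywhere, at 7701 and 9112 in Ncstn KO and 8706 and 7559 in WT. Both males lay above both females, the groups overlapped, and the log2 change was 0.05 (SE 0.11, limma adjusted p = 0.992), with a sign that turned to -0.15 under the scaling to hybridization controls. Bright myeloid genes on the array differed among themselves. Mpo, the peroxidase of primary granules (0.01, SE 0.05), and S100a8 and S100a9, the subunits of calprotectin (0.11, SE 0.12 and 0.01, SE 0.06), all named after their values were seen, had small changes whose signs turned under the same scaling, whereas the granule protease gene Ctsg, about as bright as Lyz2, had a change of 0.58 (SE 0.08) with separate arrays.

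Of the genes for secreted and matrix proteins, F13a1, Lgals3, Hp and Vcan were all more than 2-fold higher in Ncstn KO. F13a1 encodes the catalytic A subunit of coagulation factor XIII, which crosslinks fibrin and is made by monocytes and megakaryocytes. Its intensity was 2773 and 1732 in Ncstn KO against 770 and 640 in WT. Even the lower Ncstn KO array, from the male, was more than 2-fold above the higher WT array. The log2 change was 1.64 (SE 0.25, limma adjusted p = 0.21), or 3.12-fold, the 40th highest of all genes.

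Lgals3 encodes galectin-3, a carbohydrate-binding lectin once named Mac-2 for its abundance on macrophages. It read 1241 and 1428 in Ncstn KO and 442 and 469 in WT. Both groups were tight, which gave Lgals3 the smallest unadjusted p of the 10 genes (7.7e-05, 8th of all genes) at a log2 change of 1.55 (SE 0.17, limma adjusted p = 0.161), or 2.92-fold.

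Hp encodes haptoglobin, a plasma protein that binds free hemoglobin and that myeloid cells also make. Hp intensities were 3426 and 3918 in Ncstn KO and 1924 and 1340 in WT. The WT arrays differed from each other more than the Ncstn KO arrays did, yet both stayed lower, and the log2 change was 1.19 (SE 0.19, limma adjusted p = 0.233), or 2.28-fold.

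Vcan encodes versican, a large chondroitin sulfate proteoglycan of the extracellular matrix whose transcript is a known marker of classical monocytes in human blood. Its main probe set, 1427256_at, read 246 and 144 in Ncstn KO against 30.2 and 24.2 in WT. Both WT arrays were dim, while the female Ncstn KO array was the brightest of the 4. The log2 change was 2.80 (SE 0.33, limma adjusted p = 0.161), or 6.96-fold, the 3rd highest of all genes.

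The 8 probe sets of Vcan did not give the same size of difference. In the next brightest, 1427257_at, the Ncstn KO arrays read 190 and 60.2 and the WT arrays 35.7 and 37.7, and in 1421694_a_at they read 120 and 33.4 in Ncstn KO and 13.4 and 8.72 in WT. Their log2 changes were 1.55 (SE 0.56) and 2.55 (SE 0.62), and in each the female Ncstn KO array stood far above the male one. A dimmer probe set, 1433043_at, was separate too, at 17.7 and 10.5 in Ncstn KO and 7.18 and 7.71 in WT. The remaining 4 were near the floor of the arrays, between 4.55 and 9.99, and overlapped, with changes of -0.09 to 0.22. Averaging all 8 gave Vcan a change of 1.01. Over all 19 probe sets of the 10 genes, 18 had a positive change and 14 had both Ncstn KO arrays above both WT arrays. Of the 19, 8 are of Vcan and 3 of Csf1r, so they are not separate readings of the set. Over all genes, each by its main probe set, those shares were 55.8% and 21.3%. Tested as 45037 single probe sets, none of the 19 passed limma.

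**Figure D3:**
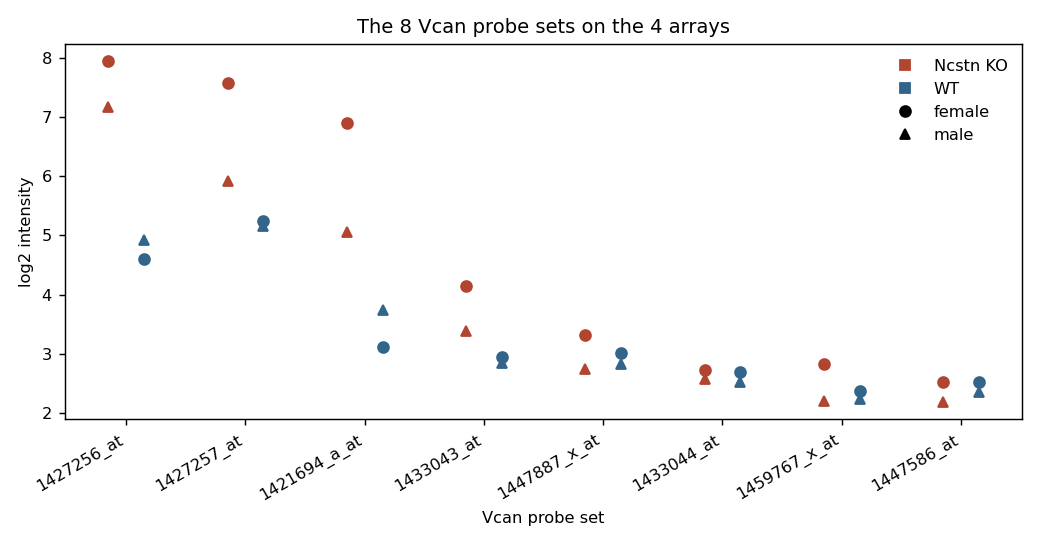
Log2 intensity of the 8 Vcan probe sets on the 4 arrays, in falling order of the Ncstn KO mean, with Ncstn KO left of WT, circles for females and triangles for males. The 4 probe sets on the left separate the groups, and the 4 on the right overlap near the floor.

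The promoters of 7 of the 10 genes were in the RefSeq-based table of build GRCm38.p6, in 9 windows of 300 bases that reach from 250 bases before to 50 bases after a gene's start. Searches on both strands used 5 motifs, GAGGAAG for PU.1, TTGCNNAA for C/EBP factors, TGANTCA for AP-1, TTCNNNGAA for STAT factors and GTGGGAA for RBPJ, the DNA-binding partner of Notch. The windows shown are those of the 4 genes that held a match (F13a1, Vcan, Fcgr3 and Cd68) and that of Lyz2, whose groups overlapped, and capitals mark the matches, which did not overlap each other. They lie on the minus strand at chr13:37049164-37049463 (F13a1, 1 of 2 starts), chr13:89742463-89742762 (Vcan), chr1:171059345-171059644 (Fcgr3, 1 of 2 starts), chr11:69666121-69666420 (Cd68) and chr10:117282223-117282522 (Lyz2).
F13a1: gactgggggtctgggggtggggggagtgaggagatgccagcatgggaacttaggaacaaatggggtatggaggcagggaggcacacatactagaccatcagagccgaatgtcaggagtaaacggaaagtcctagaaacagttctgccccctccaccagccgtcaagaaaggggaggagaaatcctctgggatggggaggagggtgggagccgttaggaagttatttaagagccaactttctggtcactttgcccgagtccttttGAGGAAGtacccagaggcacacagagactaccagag
Vcan: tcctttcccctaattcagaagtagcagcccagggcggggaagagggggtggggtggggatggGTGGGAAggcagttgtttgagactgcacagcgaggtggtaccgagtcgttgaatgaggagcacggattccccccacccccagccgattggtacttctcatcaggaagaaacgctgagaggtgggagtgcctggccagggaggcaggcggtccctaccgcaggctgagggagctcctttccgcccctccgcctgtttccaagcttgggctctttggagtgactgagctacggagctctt
Fcgr3: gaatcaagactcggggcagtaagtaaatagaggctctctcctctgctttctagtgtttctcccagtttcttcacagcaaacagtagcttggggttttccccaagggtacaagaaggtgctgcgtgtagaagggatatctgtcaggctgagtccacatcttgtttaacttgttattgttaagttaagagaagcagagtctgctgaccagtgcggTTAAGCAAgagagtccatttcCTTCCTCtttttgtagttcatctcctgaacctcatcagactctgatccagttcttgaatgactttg
Cd68: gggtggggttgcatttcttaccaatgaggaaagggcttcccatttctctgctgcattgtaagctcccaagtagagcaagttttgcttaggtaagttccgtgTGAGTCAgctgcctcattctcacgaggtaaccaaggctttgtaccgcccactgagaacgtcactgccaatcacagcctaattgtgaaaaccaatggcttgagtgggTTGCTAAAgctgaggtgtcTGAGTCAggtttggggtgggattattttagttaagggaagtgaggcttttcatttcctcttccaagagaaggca
Lyz2: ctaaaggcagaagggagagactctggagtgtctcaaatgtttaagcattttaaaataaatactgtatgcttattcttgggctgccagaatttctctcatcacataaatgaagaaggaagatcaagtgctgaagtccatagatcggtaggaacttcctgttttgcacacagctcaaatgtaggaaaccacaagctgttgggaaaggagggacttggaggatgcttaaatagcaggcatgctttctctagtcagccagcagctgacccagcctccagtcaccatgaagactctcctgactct
GAGGAAG stood at bases 265 to 271 of the F13a1 window and, on the other strand, at bases 235 to 241 of the Fcgr3 window. It was found for these 2 of the 7 genes, in 4 of the 9 windows, and in 13.6% of all 32851 promoter windows. Both Fcgr3 windows overlap and hold the same site. The C/EBP letters were found in the Fcgr3 and Cd68 windows (10.8% of all windows) and the AP-1 letters at 2 places in that of Cd68 (7.81%). GTGGGAA lay at bases 63 to 69 of the Vcan window and in no other of the 7 genes, against 6.38% of all windows. No window of the 7 genes held the STAT letters, which 8.3% of all windows did. The windows of Ly86, Lgals3 and Lyz2 held none of the 5 motifs. These matches describe letters only.

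Sex was balanced over genotype, which allowed the difference to be read within each sex with 1 array per genotype. All 10 genes had a positive change in both the female and the male pair, as did 32.3% of all genes, and 6 were at least 2-fold higher in both pairs, as were 0.599%. In the female pair 6 genes were at least 2-fold higher (1.91% of all genes) and in the male pair 8 were (2.27%). F13a1 had a log2 change of 2.12 in the females and 1.17 in the males, and Vcan of 3.35 and 2.25. Cd68, with 0.41 and 1.27, and Adgre1, with 0.01 and 1.90, leaned the other way. Ly86 was level across the sexes, at 1.05 and 1.04. With 4 arrays an interaction of genotype and sex could not be fitted, so none of these contrasts between the sexes was tested. For 8 of the 10 genes, all but Adgre1 and Lyz2, the change was larger than the difference between the arrays of either group, as it was in the higher direction for 14.6% of all genes.

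**Figure D4:**
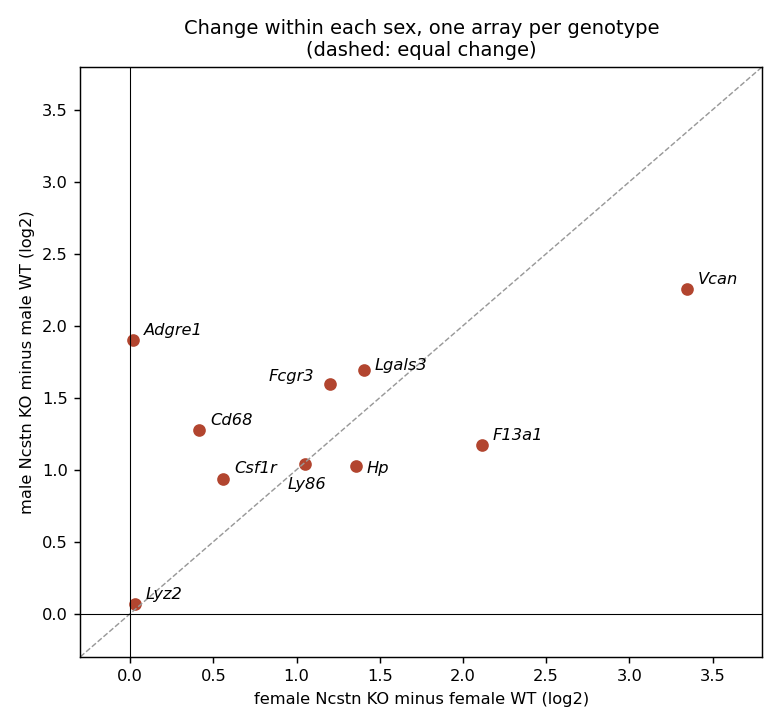
Log2 change of each of the 10 genes in the male pair (vertical axis, male Ncstn KO minus male WT) against the female pair (horizontal axis, female Ncstn KO minus female WT), with 1 array per genotype and sex. All points lie above 0 on both axes. F13a1 and Vcan lie below the dashed line of equal change, and Adgre1 and Cd68 lie above it.

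The next question was whether other genes of the monocyte pathway differed. Of 14 measured regulators and growth factor genes, 12 lay above WT (all genes: 55.8%), 7 of these with separate arrays (all genes: 21.3%). Of the list 0 passed, and the median log2 change was 0.29. That median was 0.09 under the scaling to hybridization controls, 0.14 without Ncstn KO replicate 2 and 0.19 without WT replicate 2. The smallest unadjusted p belonged to Csf2rb, the shared beta chain of the receptors for granulocyte-macrophage colony-stimulating factor and related cytokines. It read 3220 and 3571 in Ncstn KO and 2448 and 2387 in WT, a change of 0.49 (SE 0.10, limma adjusted p = 0.365). Cebpa, a transcription factor required for granulocyte-macrophage progenitors, had a change of 0.34 (SE 0.08), Tyrobp, a signalling adaptor of myeloid receptors, of 0.46 (SE 0.15) and Irf8 of 0.43 (SE 0.15). Spi1, named after its value was seen, had 1031 and 1029 in Ncstn KO and 834 and 889 in WT, a change of 0.26 (SE 0.15, limma adjusted p = 0.862). The 2 genes below WT, Nr4a1 and Egr1, were named after their values were seen. Nr4a1 had the largest change of the list in size, -1.35 (SE 0.81). Its arrays overlapped, at 197 and 1337 in Ncstn KO and 1493 and 1153 in WT. Egr1 had a change of -0.16 (SE 0.16). No test compared this list with the 10 genes.

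A wider list of 32 measured monocyte and macrophage genes was mixed, with 19 above WT (all genes: 55.8%) and 13 below. Of these 0 passed, and the median change was 0.10. That median became -0.10 under the scaling to hybridization controls and 0.37 with genes of a mean log2 under 6 left out, and leaving out Ncstn KO replicate 2 gave 0.29 and leaving out WT replicate 2 gave 0.21. In mean level 18 of these 32 genes lay below the median of all genes. Both directions were represented among separate arrays, 12 above (all genes: 21.3%) and 2 below (all genes: 12.8%). At least 2-fold higher with separate arrays were Ccr2, Cd14, Itgam, Fcgr1 and S100a4, of which Cd14, Itgam and Fcgr1 were named after their values were seen. Ccr2, the chemokine receptor by which monocytes leave the marrow, read 1449 and 967 in Ncstn KO and 453 and 387 in WT, and was 2.82-fold higher (SE 0.24 on the log2 scale, limma adjusted p = 0.233). S100a4, a calcium-binding protein, had a change of 1.02 (SE 0.17), Fcer1g, the signalling chain that Fc receptors share, 0.51 (SE 0.12), Fcgr1, the high-affinity immunoglobulin G receptor, 1.37 (SE 0.42), Cd14, the lipopolysaccharide co-receptor, 1.10 (SE 0.25), and Itgam, the integrin CD11b, 1.07 (SE 0.36). Itgam had a change of 0.59 without WT replicate 1 and was lost when genes with a mean log2 under 6 were left out, and Fcgr1 had 0.91 without WT replicate 1 and 0.75 over the mean of its probe sets. In the other direction, Adgre4, an adhesion receptor of the same family as Adgre1, read 26.2 and 25.7 in Ncstn KO against 80.0 and 77.0 in WT, a change of -1.60 (SE 0.23, limma adjusted p = 0.196). It was dim, its change was -0.89 over the mean of its probe sets, and it was lost when genes with a mean log2 under 6 were left out. Among the genes below WT, 4 were named after their values were seen. The complement genes C1qa, C1qb and C1qc had changes of -0.70 (SE 0.46), -0.67 (SE 0.52) and -0.23 (SE 0.46), which became 0.0020, 0.14 and 0.36 without Ncstn KO replicate 2. The hemoglobin scavenger receptor gene Cd163 had 156 and 310 in Ncstn KO against 381 and 349 in WT, a change of -0.73 (SE 0.35, limma adjusted p = 0.8) that was -0.23 without Ncstn KO replicate 1.

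Markers of other cell types that a sorted fraction could hold were read on the same arrays, as counts and as the summed intensity of each list. All 6 measured granulocyte-macrophage progenitor genes lay above WT (all genes: 55.8%), 5 with separate arrays (all genes: 21.3%) and 0 passing, with a median change of 0.66. Their sum was 41753 and 41586 in Ncstn KO and 28291 and 28714 in WT. The smallest unadjusted p values were those of Ms4a3 (change 1.35, SE 0.10, limma adjusted p = 0.0624), a membrane protein of these progenitors, and of the granule proteases Elane (1.19, SE 0.11), Prtn3 (0.75, SE 0.10) and Ctsg (0.58, SE 0.08). Of 11 mature neutrophil genes 10 lay above WT, 3 of them with separate arrays (all genes: 21.3%), and 0 passed. Their median change was 0.36 over the 11. Csf3r, named after its value was seen, lay below WT with separate arrays. The neutrophil sum overlapped between the groups, at 47411 and 65126 in Ncstn KO and 55280 and 44371 in WT, and was higher in the male of each. Its members of smallest p were Cxcr2, a chemokine receptor (1.20, SE 0.25), Mmp8, a collagenase (0.90, SE 0.30), Lcn2, an iron-carrier-binding protein (0.44, SE 0.21), and Cd177, a surface glycoprotein (0.89, SE 0.43). The arrays of Lcn2 and of Cd177 overlapped between the groups. Without Ncstn KO replicate 2 the neutrophil median was -0.03, Cd177 had a change of 0.37 and Lcn2 of 0.19, and without WT replicate 2 the median was -0.02, Mmp8 had 0.55, Cd177 0.42 and Lcn2 0.19. No gene of either list had a mean below the median of all genes, so none was near the floor. In mean level the neutrophil genes ran from percentile 51.1 of all genes for Cxcr2 to 99.9 for S100a9. Whether mature myeloid cells were among the sorted cells was not tested.

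The 5 measured basophil and mast cell genes were all above WT with separate arrays, at a median change of 1.10, and their sum was 5315 and 4441 in Ncstn KO against 2187 and 2152 in WT. Megakaryocyte genes, a second known source of F13a1, lay above WT in 5 of 5 cases (4 with separate arrays), with a median of 0.56 (0.37 without WT replicate 1 and 1.18 without WT replicate 2) and a sum of 3263 and 3027 in Ncstn KO against 1453 and 2422 in WT. Dendritic cell genes split 4 above and 4 below, with a median of 0.07 and a sum that went with sex, 9568 and 4169 in Ncstn KO and 3700 and 7429 in WT, and 7 of these 8 genes had a mean below the median of all genes. Most of that sum was Cd74, at 8567 and 3505 in Ncstn KO and 3082 and 6638 in WT. Likewise, most of the T and NK cell sum below was Nkg7, at 6765 and 6443 in Ncstn KO and 6910 and 6573 in WT. Cd74 and Nkg7 were named after their values were seen. B cell genes split 3 above and 3 below (median -0.18, sums of 3570 and 6854 in Ncstn KO and 4563 and 4666 in WT). With separate arrays 1 lay above and 1 below, the latter Ms4a1 at a change of -2.12 (SE 0.24, limma adjusted p = 0.161). T and NK cell genes lay 1 above and 3 below, at a median of -0.06. Their sums were 6915 and 6535 in Ncstn KO and 7005 and 6766 in WT, with separate arrays for 0 above and 1 below. Erythroid genes lay 2 above and 2 below, at a median of -0.44 and sums of 1094 and 866 in Ncstn KO and 1520 and 1050 in WT. Their separate arrays were 1 above and 2 below, Alas2 at -1.30 (SE 0.36) and Slc4a1 at -1.05 (SE 0.43). Ms4a1, Alas2 and Slc4a1 were named after their values were seen. Of the positive sort markers, Kit was among the measured genes and Ly6a, the gene of Sca1, was not. The 8 measured genes of the sort and of stem cells were balanced by count, with 4 above and 4 below and a median of 0.02. Their sums were 27023 and 30244 in Ncstn KO and 29230 and 25596 in WT. Among them Slamf1, a surface antigen of stem cells named after its value was seen, read 2147 and 1635 in Ncstn KO against 1390 and 797 in WT, a change of 0.83 (SE 0.28, limma adjusted p = 0.633, and 0.43 without WT replicate 2). None of these genes passed limma. Over all genes 55.8% lay above WT, 21.3% had both Ncstn KO arrays above both WT arrays and 12.8% had both below. The granulocyte-macrophage progenitor, basophil and mast cell and megakaryocyte lists thus lay higher together with the 10 genes, and their part in the difference was not tested.

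**Figure D5:**
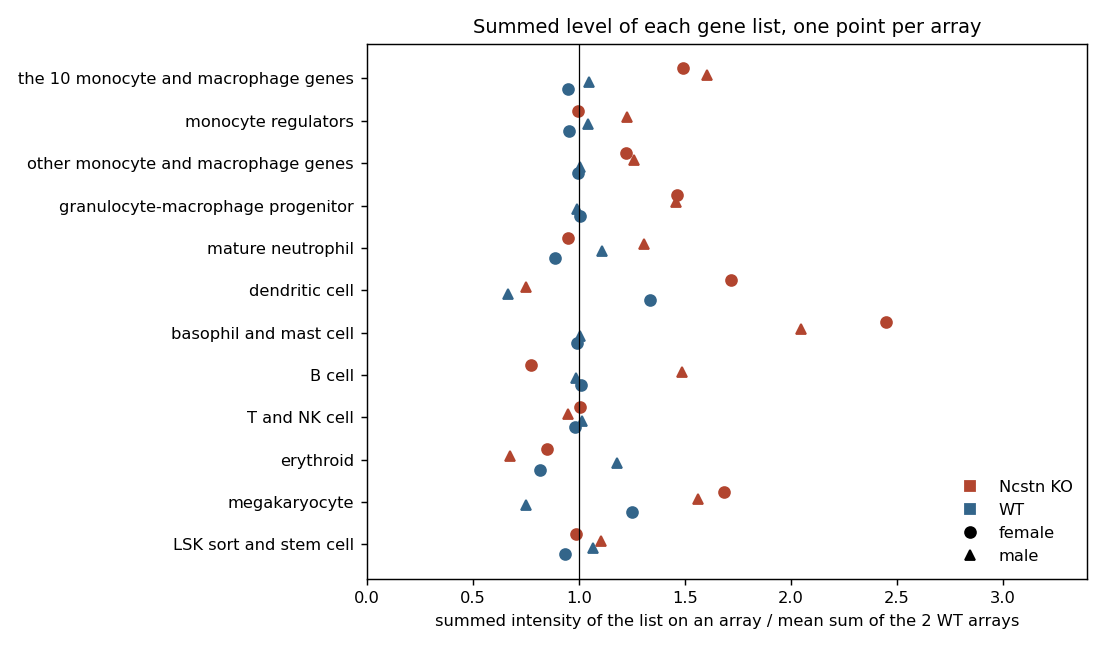
Summed linear intensity of each gene list on each array, divided by the mean sum of the WT arrays, with 1 point per array, Ncstn KO in red above WT in blue, circles for females and triangles for males. The Ncstn KO points lie right of both WT points for the 10 genes, the wider monocyte list, granulocyte-macrophage progenitors, basophils and mast cells and megakaryocytes, and the groups overlap for the other lists.

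The genes whose pattern over the 4 arrays was nearest to the mean of the 10 were found by the Euclidean distance between log2 values centred over the arrays. That mean profile stood at 0.57 and 0.65 on the Ncstn KO arrays and at -0.64 and -0.58 on the WT arrays. The nearest gene was Elane, which encodes neutrophil elastase, at a distance of 0.12, with 5042 and 5830 in Ncstn KO and 2410 and 2353 in WT. It was followed by Tesmin (0.12), Oosp1 (0.13), Klrb1f (0.15) and Fam181b (0.16). A likeness over 4 arrays is a description and was not tested.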

How the data were processed

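Affymetrix arrays were used to profile RNA of LSK cells of 4 mice, 2 Ncstn KO and 2 WT. Each deposited value is the linear (not log) intensity of a probe set. RMA made these summaries, per the submitters' processing notes; the sources used here do not name the program that ran it. RMA scales arrays to each other as if most genes were level. Per the labels' protocols, 5 ng of total RNA was amplified with Nugen Ovation reagents, which adds noise for rare transcripts. Log2 was taken before any test, and no scaling was added.

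The 64 control probe sets were left out. Symbols came from GEO's platform annotation of the probe sets, of which 34945 named 1 gene, 932 several and 9160 were unnamed here, and 34741 matched the RefSeq gene table by Entrez ID, which altered 0 symbols. Each of 18193 genes was represented by its brightest probe set over the 4 arrays. The genotypes were compared with limma 3.58.1 in R 4.3.3 (variance trend, genotype as the only term, two-sided, Benjamini-Hochberg adjustment over all genes, threshold 0.05, 2 residual and a mean of 4.11 prior degrees of freedom). The script was tested on simulated data. Figures were drawn with matplotlib 3.10.9.

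The 10 genes and all lists were chosen with earlier results of these data known. Named by rule were these genes, Ncstn, Kit, the 4 genes of smallest unadjusted p in each of the monocyte regulator, wider monocyte, granulocyte-macrophage progenitor and neutrophil lists, and the 5 nearest genes; for the other lists only counts and sums are given, and exceptions are marked. A few listed genes are not analysed here, and each list count covers its measured genes. The groups share replicate numbers, but same-numbered mice differed in sex, and the deviations of same-numbered arrays from their group means correlated at -0.24 across genes, so the numbers were not taken as pairs. The sexes differ within each group, so its arrays came from separate mice. Alternatives were other model terms, scalings, log offsets, probe set rules, filters and leaving out each array.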

Additional observations from a re-analysis of the deposited data

Results flagged for a closer look

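Some genes that were set beside the 10 had changes of opposite sign in the female and the male pair. Each pair had 1 array per genotype and sex, and these differences were not tested. Log2 Ncstn KO minus WT was 0.13 in females and -0.22 in males for Kit, 0.041 and -0.015 for Mpo, and -0.017 and 0.037 for S100a9. It was -0.49 and 0.25 for Cd180, 0.0016 and -0.46 for C1qc, and 0.042 and -0.10 for Nkg7. Those of Mpo and S100a9 were close to 0 in both sexes. Listed genes not named above also had opposite signs, among them Vpreb1 (-0.23 and 1.36) and Mrc1 (0.41 and -1.16). None of the 10 monocyte and macrophage genes had opposite signs in the pairs.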

How the results depend on the processing

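The signs of 9 of the 10 genes held in every alternative that kept the gene, and Lyz2 turned to -0.15 under scaling to the hybridization controls and ran from -0.075 to 0.17 with 1 array left out (negative without WT replicate 2 or Ncstn KO replicate 2). The median of the 10 was 0.92 under that scaling and 1.08 to 1.30 with 1 array left out. Adgre1 was lost when genes with a mean log2 under 6 were left out. The count of called genes, 0 in the main setting, was 62 after centring arrays on their medians, 3 after quantile normalization and 1 with dim genes left out, and 0 to 27 with 1 array left out. After median centring F13a1 (limma adjusted p = 0.0327), Vcan (0.0174), Fcgr3 (0.0335), Hp (0.0327) and Lgals3 (0.0174) passed. Their SE rose for F13a1 (0.25 to 0.26), Vcan (0.33 to 0.37) and Lgals3 (0.17 to 0.21). It fell for Fcgr3 (0.25 to 0.23) and Hp (0.19 to 0.18). A smaller SE thus did not go with each pass, and why these genes passed was not tested. Leaving out 1 array leaves a genotype with 1 mouse, whose spread is assumed to be that of the other group. Genes at least 2-fold apart with separate arrays numbered 311 (217 higher and 94 lower, but 111 higher and 168 lower under the control scaling), against 190 with log2(value + 16), 204 with dim genes left out and 419 to 566 with 1 array left out. The replicate block gave 0 calls and left the median at 1.12. Same-numbered arrays were of opposite sex, so sex and crossed numbers cannot be told apart as a source of the correlation of -0.24. The block with crossed numbers, chosen after seeing the data, is the same fit as a sex term and also gave 0 calls. Other signs turned under the control scaling for Mpo (-0.18), S100a8 (-0.087) and S100a9 (-0.19), after quantile normalization for Mpo (-0.0010), and with 1 array left out for Kit (-0.23 to 0.14), Cd180 (-0.56 to 0.32), C1qa (-1.40 to 0.0020), C1qb (-1.47 to 0.14), C1qc (-0.82 to 0.36), Mpo (-0.0047 to 0.031), S100a8 (-0.033 to 0.25) and S100a9 (-0.053 to 0.073). The cause was not tested. Signal over background was not given, so differences of dim probe sets such as Adgre1 and Vcan carry an unknown error.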
